A study of Sus scrofa with 120 samples.

Results

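The effect of the TRPV4 antagonist GSK205 on mechanically loaded cartilage constructs was measured by RNA sequencing, 3 h after the onset of loading. The comparison set the 4 libraries titled as physiologic loading with GSK205 against the 4 titled as physiologic loading, 8 of the 120 libraries of the series. Groups and times were read from the sample titles. All constructs held primary pig chondrocytes from femoral cartilage cast in agarose and grown with serum. Loading was cyclic unconfined compression for 3 h at 1 Hz with 10% peak-to-peak deformation, so the 3 h harvest fell at its end. GSK205 was given at 10 uM per the series design, while the sample labels write mM. The groups drawn on beside these 8 were free-swelling constructs in DMSO, free-swelling constructs in GSK205, and both loaded groups at 9 h, each with 4 libraries. The models of each time also held the groups treated with the TRPV4 agonist GSK101 and with IL-1, each with 4 libraries. At 9 h they held the free-swelling DMSO and GSK205 groups too. These groups shared in the filter, the scaling and the estimate of spread. The labels do not say whether the constructs loaded without GSK205 received DMSO, nor whether the drug stayed in the medium after loading ended. Separate animals or cultures are not named for the replicates, and p-values therefore describe the spread among these libraries, which may be technical.

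TRPV4 is a calcium-permeable cation channel of the chondrocyte membrane that opens on osmotic and mechanical stimuli, and GSK205 blocks it. Calcium entering chondrocytes acts on kinases, calcineurin and transcription factors, and the genes that answer first are mostly transcription factors, cytokines and feedback inhibitors. Activin A and TGF-beta signal through SMAD proteins, IL-11 and LIF signal through STAT3 with SOCS3 as feedback, and cAMP with CREB drives the NR4A receptors and SIK1.

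Total counts ran from 31848889 to 66758428 in the loading libraries and from 28322719 to 39362454 in those with loading and GSK205. Levels below are CPM, the counts of a gene per 1e6 counts of the scaled library total, which are not corrected for transcript length. Differences are log2 fold changes with standard errors from edgeR's quasi-likelihood test, called at a Benjamini-Hochberg adjusted p under 0.05. The summed level of 10 chondrocyte markers, led by COL2A1 and ACAN, was 94940 to 104662 CPM with loading and 96090 to 108656 CPM with loading and GSK205. Leukocyte markers summed to 620.4 to 711.7 CPM and 752.9 to 948.1 CPM, nearly all of it CD74, with 6 of 10 markers passing the filter on low counts and LYZ at 0 in all of these libraries. Endothelial and mural markers summed to 3451 to 4394 CPM and 3024 to 3584 CPM, nearly all of it CSPG4, which chondrocytes also express. Fibroblast markers summed to 742.5 to 829.4 CPM and 707 to 815.4 CPM. Fat, red cell, muscle and bone markers summed to 6.23 to 8.45 CPM and 5.70 to 6.66 CPM. The part of these shifts in the results was not tested, and in bulk samples fewer cells of a type and less RNA per cell cannot be told apart.

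A drug effect on a channel need not change its mRNA, so TRPV4 mRNA does not check the labels. TRPV4 stood at 571, 520, 530 and 526 CPM in replicates 1 to 4 with loading and at 451, 450, 413 and 444 CPM with loading and GSK205. The groups did not overlap, and TRPV4 fell by 0.29 ± 0.05 on the log2 scale (adjusted p = 0.000366). The other mechanically gated channel of this series, PIEZO1, lay between 100.7 and 115 CPM with loading and between 94.3 and 110 CPM with GSK205 as well. Its groups overlapped, and its difference of -0.09 ± 0.08 did not pass the test.

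Of 16562 genes tested, 2529 (15.3%) were called, 1177 (7.11%) higher and 1352 (8.16%) lower with GSK205 added to loading. Without replicate 1 of the loading group, the deepest library, 1596 were called. Changes of at least 2-fold were mostly falls, with 153 genes lower and 52 higher. Of the 153, 1 was a small RNA, 51 were long non-coding RNAs, pseudogenes and other kinds, and the rest were protein-coding, while 77 averaged under 1 CPM in the loading group. Of the 52, 31 were small RNAs and 18 protein-coding. Small RNAs took 7.34 ± 1.13% of all counts with loading and GSK205 and 5.83 ± 0.75% with loading (SD, n = 4). The difference in share had an exact two-sided permutation p of 0.0571, where 4 against 4 libraries can reach 0.0286, and its part in the small RNA calls was not tested.

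Among protein-coding genes at 1 CPM or more in a group, the largest falls were for the most part in genes that loading alone had raised. Of the 12 largest falls among protein-coding genes, 11 were called higher in loading than in DMSO, where 7.86% of all genes were. GSK205 without load lowered 4 of the 12, where it lowered 12.5% of all genes. The 12 falls include a laminin chain, the cytokine IL11, the activin A subunit and a vitamin D enzyme. Of the 12 largest rises, 9 were also called higher by GSK205 without load, where 14.6% of all genes were, and these were led by metallothioneins, NR4A receptors and the kinase SIK1. Being raised by loading was not confined to the falls, since 6 of the 12 largest rises were also called higher in loading than in DMSO. Comparisons with loading against DMSO share the loading libraries with the main comparison, so a gene high in loading by chance is moved in both. The filter at 1 CPM also kept falls through the loading group, their higher group. The 11 of 12 is therefore in part fixed by how the falls were chosen. The 12 rises and 12 falls also had to be without overlap between the groups, so their lack of overlap is no result.

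**Figure D1:**
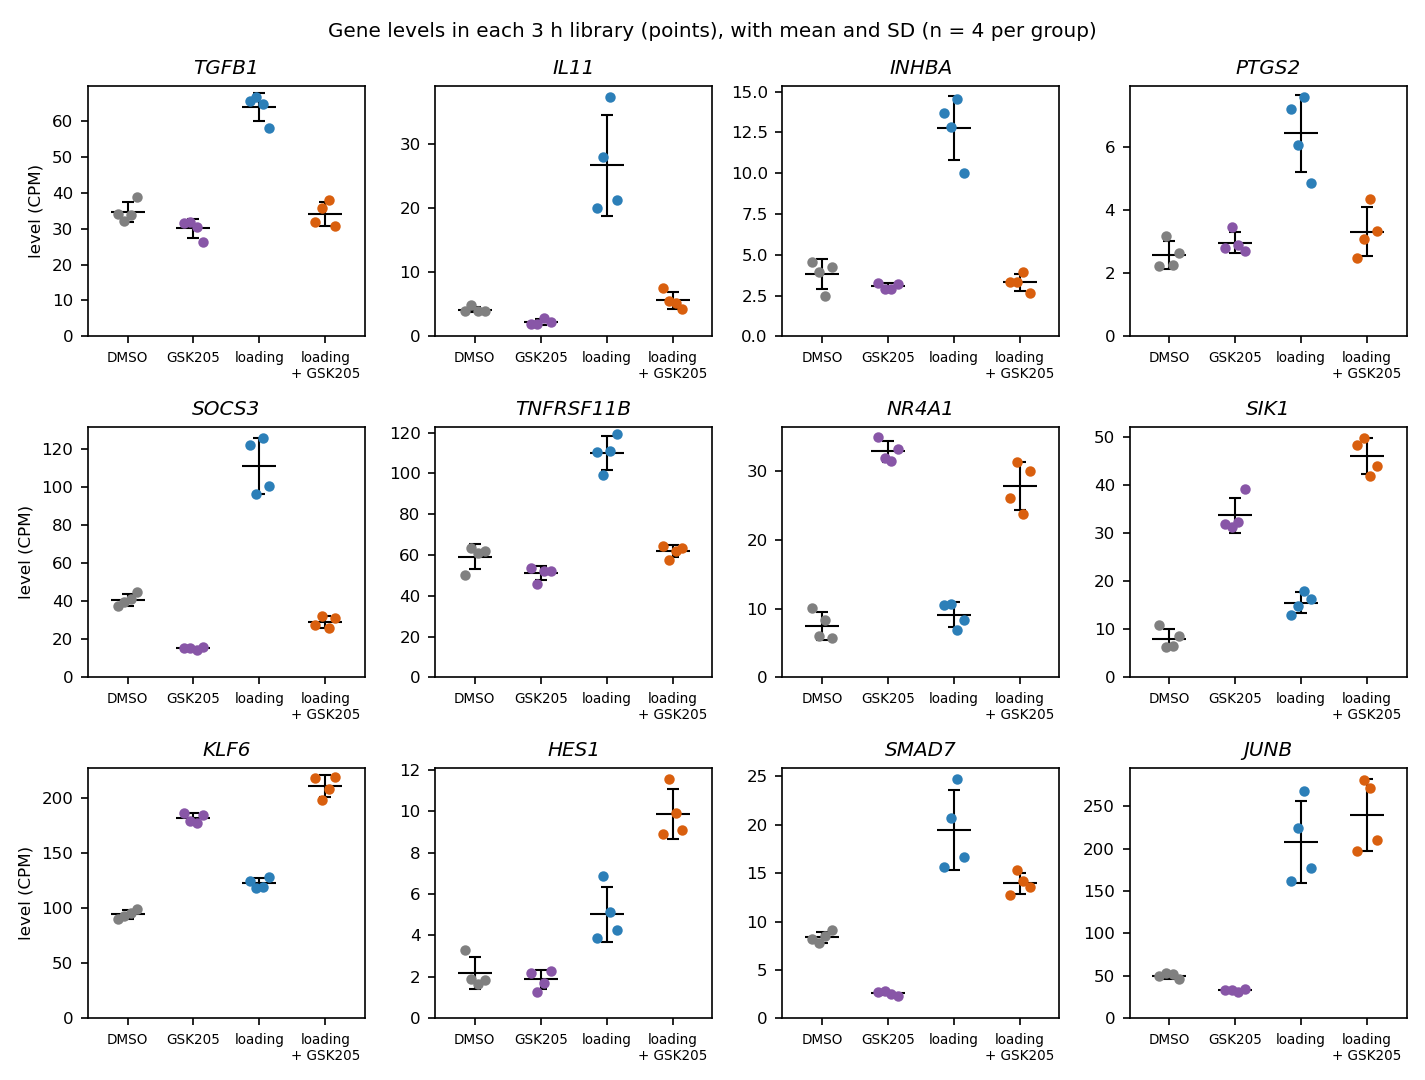
Levels (CPM, y axis, from 0) of 12 genes in each 3 h library, with the mean and SD of 4 libraries in DMSO, GSK205, loading, and loading with GSK205. TGFB1, IL11, INHBA, PTGS2 and TNFRSF11B are high in loading alone, NR4A1, SIK1 and KLF6 are high in both GSK205 groups, and JUNB is high in both loaded groups.

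LAMA3 (chromosome 6, 108548818 to 108805700 on Sscrofa11.1) encodes a laminin chain of basement membranes. It stood at 2.12, 2.90, 3.70 and 1.90 CPM with loading and at 0.666, 0.874, 0.575 and 0.647 CPM with loading and GSK205. The gene was 3.84-fold lower (log2 -1.94 ± 0.31, adjusted p = 6e-05). In free-swelling constructs it averaged 0.822 CPM in DMSO and 0.705 CPM in GSK205. Loading raised it by 1.67 ± 0.31 without GSK205, and its difference between loading with GSK205 and GSK205 alone was -0.03 ± 0.34, which did not pass. The test of the difference between those responses, the interaction of loading and GSK205, gave -1.70 ± 0.47. It passed narrowly (adjusted p = 0.0464) and was called in 7 of 21 settings of the analysis.

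The interaction passed for 372 genes (2.25%), 148 (0.894%) with a positive and 224 (1.35%) with a negative value. A negative value means that loading raised a gene less, or lowered it more, in the presence of GSK205. Of the 1352 genes that fell, 105 had an interaction call, 76 of them negative. Of the 1177 genes that rose, 40 had one, 29 of them positive. The interaction uses the same 8 libraries as the main comparison, and its count depends on single ones: it was 671 without replicate 1 of DMSO, 135 without replicate 1 of loading with GSK205, and 159 to 243 without replicate 2 or 4 of DMSO, 1, 2 or 3 of GSK205, or 2 or 3 of loading. The excess of negative values turned around with RLE scaling (157 positive, 131 negative), with protein-coding genes only (177 and 131), with only the groups compared (146 and 121) and without replicate 2 of GSK205 (98 and 72).

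List counts below stand beside these shares of all genes. With GSK205 added to loading 7.11% were called higher and 8.16% lower, and with GSK205 without load 14.6% and 12.5%. Loading called 7.86% higher and 2.3% lower over DMSO, and 7.58% and 4.35% over GSK205. The interaction was positive for 0.894% and negative for 1.35%. Among activin and TGF-beta genes, 2 of 28 tested rose and 8 fell, with a median log2 fold change of -0.12 beside -0.02 over all genes tested. INHBA, the subunit that forms activin A, stood at 13.7, 12.8, 14.5 and 10.0 CPM with loading and at 3.33, 3.32, 3.97 and 2.66 CPM with loading and GSK205. Every treated library lay within the DMSO range of 2.49 to 4.57 CPM. The interaction of INHBA was -1.66 ± 0.21 (adjusted p = 2.58e-05). TGFB1, the TGF-beta 1 ligand, stood at 65.8, 66.8, 64.8 and 58.2 CPM with loading and at 31.9, 35.8, 38.1 and 30.8 CPM with GSK205 added. It fell by 0.91 ± 0.08, the groups did not overlap, and its interaction was -0.70 ± 0.12 (adjusted p = 0.00146). Also lower were INHBB by 0.75 ± 0.18, the ubiquitin ligase SMURF1 by 0.61 ± 0.09 and the signal transducer SMAD3 by 0.56 ± 0.06. The transcriptional corepressors TGIF1 and SKIL, which loading raised by 1.26 ± 0.07 and 1.16 ± 0.09, differed by 0.06 ± 0.07 and -0.23 ± 0.09 when GSK205 was added, and neither passed.

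IL-6 family cytokines, receptors and SOCS genes gave 9 falls and 0 rises among 23 tested (median -0.22). IL11 (chromosome 6, 59540482 to 59544909), a cytokine of this family, stood at 20.0, 28.0, 37.2 and 21.3 CPM with loading and at 7.47, 5.56, 5.24 and 4.23 CPM with loading and GSK205. The groups were far apart, but loading still raised IL11 by 1.33 ± 0.21 over GSK205 alone, against 2.67 ± 0.18 over DMSO. Its interaction was -1.34 ± 0.28 (adjusted p = 0.00882). LIF, another of these cytokines, stood at 8.92, 14.2, 14.8 and 12.2 CPM with loading and at 4.78, 4.58, 5.36 and 4.70 CPM with GSK205 added. It fell by 1.35 ± 0.12, yet loading raised it by 1.84 ± 0.17 with GSK205 and by 2.09 ± 0.13 without, and the interaction of -0.25 ± 0.23 did not pass. GSK205 lowered LIF without load too, by 1.10 ± 0.19.

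SOCS3 (chromosome 12, 3643832 to 3647015), the STAT3-induced inhibitor of these receptors, stood at 122, 96.4, 126 and 100.7 CPM with loading. With GSK205 added it stood at 27.4, 32.5, 26.0 and 31.2 CPM, below the DMSO range of 37.3 to 45.0 CPM. GSK205 lowered SOCS3 by 1.42 ± 0.09 without load, and its interaction was -0.50 ± 0.12 (adjusted p = 0.0192). That interaction was called in 19 of 22 settings. BCL3, an NF-kB cofactor that STAT3 also induces, fell by 1.49 ± 0.18. The receptor subunit OSMR fell by 0.32 ± 0.06, and its interaction was -0.44 ± 0.08 (adjusted p = 0.00327).

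Of 28 NF-kB and inflammatory genes tested, 4 fell and 3 rose (median 0.00), and of 13 prostaglandin genes PTGS2 was the 1 called. PTGS2, the inducible cyclooxygenase, stood at 7.19, 6.05, 7.58 and 4.87 CPM with loading and at 2.49, 3.08, 4.36 and 3.33 CPM with loading and GSK205. The groups did not overlap, and PTGS2 fell by 0.96 ± 0.14, with an interaction of -1.16 ± 0.23 (adjusted p = 0.00452). GSK205 without load left it at 0.20 ± 0.17, which did not pass. TNFRSF11B, which encodes the RANKL decoy receptor osteoprotegerin, stood at 111, 99.0, 111 and 119 CPM with loading and at 64.3, 57.5, 62.0 and 63.6 CPM with GSK205 added. Its fall of 0.83 ± 0.07 left it 0.06 ± 0.07 from DMSO, which did not pass, and its interaction was -0.62 ± 0.10 (adjusted p = 0.000372). The IL-1 receptor IL1R1 fell by 0.51 ± 0.08 with an interaction of -0.53 ± 0.11 (adjusted p = 0.00881). The NF-kB inhibitor NFKBIA was among the genes of its list that rose (0.48 ± 0.07).

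CYP24A1, the enzyme that inactivates vitamin D, stood at 2.23, 2.35, 3.37 and 2.11 CPM with loading and at 0.347, 0.419, 0.242 and 0.597 CPM with loading and GSK205. This was the largest fall among the protein-coding genes named here, 6.09-fold, with an interaction of -2.06 ± 0.45 (adjusted p = 0.0144, called in 20 of 21 settings). HMGA1, a chromatin architectural protein, stood at 21.5, 20.9, 18.3 and 18.4 CPM with loading and at 6.83, 6.26, 7.33 and 7.24 CPM with GSK205 added. The drug groups with and without load averaged 6.91 and 7.22 CPM, both under the DMSO mean of 10.4 CPM, and the interaction was -0.98 ± 0.15 (adjusted p = 0.000372). FGF1, a fibroblast growth factor, fell by 1.46 ± 0.18 from 17.8 to 27.6 CPM to 4.40 to 10.2 CPM. It stayed above its DMSO mean of 2.49 CPM, and its interaction of -0.80 ± 0.30 did not pass. Of 24 EGF receptor ligands and growth factors tested, 7 fell and 1 rose, and of 20 ERK feedback genes 8 fell, among them the phosphatase DUSP10 (-0.79 ± 0.15), and 3 rose. The 3 rises became 1 without replicate 2 of the loading group or without replicate 3 or 4 of the group with GSK205. Also among the 12 largest falls were thrombomodulin (THBD, -1.68 ± 0.24), the sulfotransferase CHST8 (-2.43 ± 0.50), the niacin receptor HCAR2 (-1.49 ± 0.41) and LURAP1L (-1.58 ± 0.54). CHST8, HCAR2 and LURAP1L were near 1 CPM in the loading group, and LURAP1L lost its call when any library of that group, or replicate 1, 3 or 4 of the group with GSK205, was left out.

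Loading called 10.2% of all genes over DMSO, 7.86% higher and 2.3% lower, and 11.9% over GSK205 alone, 7.58% higher and 4.35% lower. The 1683 calls over DMSO became 1057 (207 lower) without replicate 3 of the loading group, 1110 (227 lower) without replicate 4 of DMSO, and 1021 (651 higher, 370 lower) with only the groups compared. The 381 lower calls over DMSO became 225 without replicate 2 of the loading group. The 1975 calls over GSK205 alone became 1521 without replicate 3 of GSK205, so the order of the 10.2% and 11.9% is not firm. Lower calls were fewer over DMSO than over GSK205 in each setting run on both comparisons. Loading raised 51 genes at least 2-fold over DMSO. With GSK205 present, 29 of these were still called higher in loaded than in free-swelling constructs and 22 were not. Their median log2 response to loading was 1.40 without and 0.87 with GSK205. Since the 51 were chosen for high values in loading against DMSO, the choice itself can raise the first median and make the interaction, which uses those libraries, more negative. The second median comes from other libraries. The interaction was called negative for 14 of them, positive for 4 and not called for 33. ATF3, a stress-induced transcription factor among the 14, was not lower with the drug: it rose by 0.50 ± 0.05, from 76.1 to 88.0 CPM to 109 to 129 CPM, and GSK205 raised it without load too. Its interaction of -0.29 ± 0.08 (adjusted p = 0.0427) was called in 5 of 22 settings.

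**Figure D2:**
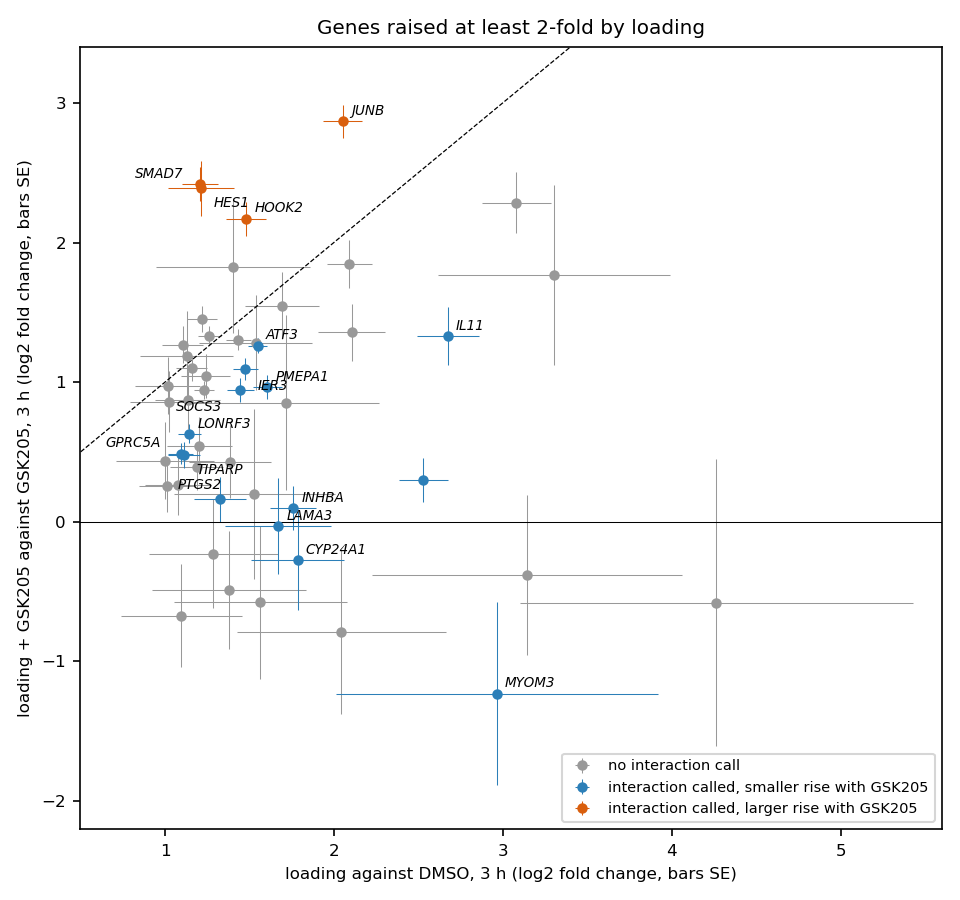
Log2 response to loading without GSK205 (x axis) and with GSK205 (y axis) of the 51 genes that loading raised at least 2-fold, with standard errors, coloured by the interaction call. The 14 genes with a negative call lie below the line of equal response and the 4 with a positive call, JUNB, HOOK2, HES1 and SMAD7, lie above it.

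A second set of genes moved with GSK205 whether or not the constructs were loaded. Comparing loading with GSK205 against loading, and GSK205 against DMSO, uses different libraries. Of the 1177 genes that rose with the drug under load, 778 (66.1%) were also called higher without load, where 27.1% of all genes were called, 2415 (14.6%) of them higher. Of the 1352 that fell, 829 (61.3%) were also called lower, where 2073 (12.5%) of all genes were. The shared genes make up 32.2% of the 2415 and 40% of the 2073. In opposite directions were 7 genes of the first set and 13 of the second. Across settings of the comparison under load, the shared part ran from 57.2 to 79.7% of the rises and from 57.9 to 67.8% of the falls. The calls for GSK205 against DMSO were held at the main setting throughout, so this range does not cover their own changes. The correlation of both sets of log2 fold changes across all 16562 genes was 0.298, a description only, since genes are not independent and weakly expressed ones add noise.

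**Figure D3:**
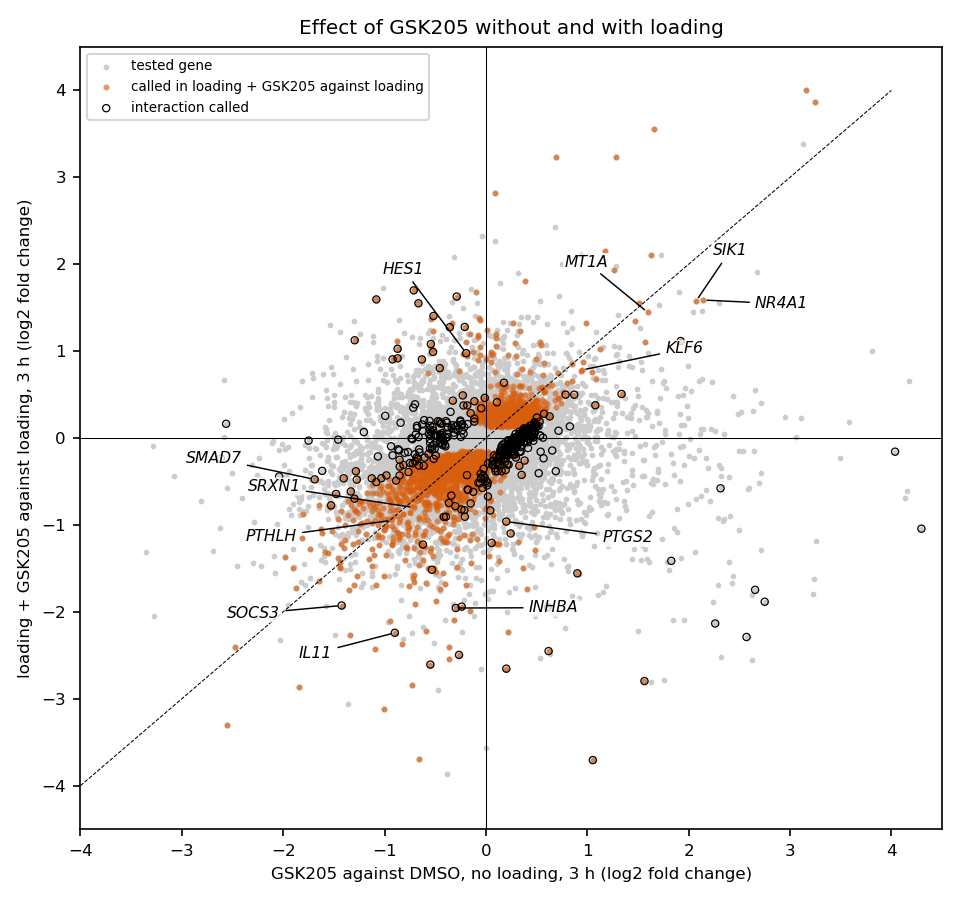
Log2 fold change of each gene tested for GSK205 against DMSO (x axis) and for loading with GSK205 against loading (y axis), with some of the named genes labelled and 10 genes outside the plotted range. NR4A1 (2.14 and 1.59) and SIK1 (2.07 and 1.58) lie high on both axes, whereas INHBA (-0.30 and -1.96) lies low on the y axis alone.

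Of 20 NR4A orphan nuclear receptor and cAMP-CREB feedback genes tested, 6 rose and 2 fell (median 0.07). NR4A1 stood at 10.5, 10.7, 6.83 and 8.40 CPM with loading and at 26.1, 31.3, 23.8 and 30.0 CPM with loading and GSK205. It was 3.01-fold higher, and averaged 32.9 CPM in GSK205 without load and 7.53 CPM in DMSO. NR4A2 stood at 50.5, 49.9, 54.1 and 44.5 CPM and rose to 95.5, 104, 115 and 112 CPM (1.10 ± 0.10). NR4A3 stood at 5.12, 4.30, 4.81 and 5.04 CPM and rose to 10.6, 11.5, 8.96 and 10.8 CPM (1.12 ± 0.13). Of the NR4A receptors, NR4A3 was the 1 with an interaction call, at -0.81 ± 0.20 (adjusted p = 0.0316), made in 14 of 22 settings. Loading raised NR4A3 by 0.85 ± 0.16 over DMSO, while the difference with GSK205 present was 0.04 ± 0.13 and did not pass.

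SIK1 (chromosome 13, 206454695 to 206465802), a CREB-induced kinase that holds CREB coactivators in check, stood at 13.0, 14.9, 18.0 and 16.3 CPM with loading. With GSK205 added it stood at 48.3, 49.9, 42.0 and 44.0 CPM, 2.98-fold higher (adjusted p = 4.76e-11). Both stimuli raised it alone, loading by 0.95 ± 0.13 and GSK205 by 2.07 ± 0.13, and the interaction of -0.50 ± 0.17 did not pass. CREM, which encodes a further CREB feedback factor, rose by 0.73 ± 0.08. The phosphodiesterase PDE4B, which degrades cAMP, fell by 0.41 ± 0.06. Its interaction was -0.36 (adjusted p = 0.0326), so the drug lowered it more under load than without.

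KLF6 (chromosome 10, 66488445 to 66497830), a zinc-finger transcription factor, stood at 125, 118, 119 and 128 CPM with loading and at 218, 198, 208 and 219 CPM with loading and GSK205. It rose by 0.78 ± 0.05 under load and by 0.95 ± 0.05 without load. Of 14 KLF genes tested, 6 rose and 1 fell, and KLF2 (0.53 ± 0.08) and KLF4 (0.44 ± 0.05) were among the rises. JDP2, a repressor of AP-1, rose by 0.87 ± 0.07 under load and by 0.96 ± 0.07 without it.

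The metallothioneins, which bind zinc and copper, gave 2 calls of 10 tested zinc genes, both higher. MT1A stood at 20.7, 24.7, 28.3 and 25.2 CPM with loading and at 89.1, 89.5, 42.3 and 47.97 CPM with loading and GSK205. The treated libraries fell into pairs, replicates 1 and 2 about 2-fold above replicates 3 and 4. MT1D was near 0 with loading, at 0.0836, 0.184, 0.211 and 0.0297 CPM, and stood at 2.95, 2.83, 1.24 and 1.14 CPM with GSK205 added, with the same split. Reads of near-identical metallothionein genes could be shared between them, so the level of each is uncertain.

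Of 24 ATF4 integrated stress response genes tested, ATF4 included, 15 were called higher and 0 lower, with a median of 0.33. Every setting called 14 or 15 higher and 0 lower. ATF4 itself, the transcription factor of this response, stood at 835, 873, 942 and 909 CPM with loading and at 1286, 1275, 1292 and 1294 CPM with loading and GSK205. It rose by 0.53 ± 0.05 under load and by 0.76 ± 0.05 without load, where 15 genes of the list were called higher and 1 lower. Among its targets, GDF15 rose by 0.60 ± 0.12, the glycoprotein hormone STC2 by 0.50 ± 0.06, the transporter subunit SLC3A2 by 0.46 ± 0.06, TRIB3 by 0.43 ± 0.06 and asparagine synthetase (ASNS) by 0.28 ± 0.06. The interaction was called positive for 2 genes of the list and negative for 1, where 0.894% and 1.35% of all genes were. DDIT4, an inhibitor of mTOR, was among the 2. It stood at 424, 396, 466 and 424 CPM with loading and at 678, 603, 548 and 528 CPM with GSK205 added, without overlap. GSK205 without load left it at -0.01 ± 0.07, and its interaction of 0.47 ± 0.10 passed (adjusted p = 0.0107). Of 22 ER chaperone and unfolded protein response genes tested, 5 rose and 1 fell, with HERPUD1 the largest rise (0.42 ± 0.05). Of 18 p53 and arrest genes tested, 7 rose and 2 fell, led by the apoptosis gene BBC3, at 10.6 to 12.6 CPM with loading and 19.6 to 22.1 CPM with GSK205 added, and by GADD45A (0.60 ± 0.08). Both counts depend on the setting: leaving 1 library out gave as few as 2 rises of ER genes and 4 of p53 genes, and DESeq2 gave 12 and 9.

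SRXN1, an antioxidant enzyme induced by NRF2, stood at 222, 231, 262 and 256 CPM with loading and at 146, 140, 136 and 136 CPM with loading and GSK205. It fell by 0.80 ± 0.06 under load and by 0.71 ± 0.06 without it, and thioredoxin reductase (TXNRD1) by 0.61 ± 0.05 and 0.55 ± 0.05. Of 19 NRF2 genes tested, 6 fell and 1 rose under load and 6 fell and 2 rose without it, and the median was 0.00 under load. CYP1A1, a detoxifying enzyme induced through the aryl hydrocarbon receptor, stood at 5.99, 6.14, 7.25 and 8.19 CPM with loading and at 2.72, 2.20, 2.75 and 2.11 CPM with GSK205 added. It was 2.81-fold lower, GSK205 without load lowered it by 1.44 ± 0.20, and 4 of 9 genes of that receptor's list fell, among them CYP1B1 (-0.61 ± 0.08) and AHRR (-1.74 ± 0.42), with none called higher. Without load 2 of the 9 fell and 1 rose.

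Hedgehog and hypertrophy genes, which order cartilage growth, gave 4 falls and 0 rises of 19 tested (median -0.24), and 8 falls and 0 rises without load. PTHLH, the parathyroid hormone-related protein, stood at 4.85, 3.43, 4.87 and 5.10 CPM with loading and at 2.92, 2.69, 1.67 and 2.19 CPM with loading and GSK205. The groups did not overlap, and it fell by 0.95 ± 0.16 under load and by 0.93 ± 0.16 without. Its partner in growth plate feedback, Indian hedgehog (IHH), fell by 0.61 ± 0.13, the receptor PTCH1 by 0.66 ± 0.11 and the effector GLI1 by 0.93 ± 0.26, a call lost without replicate 2 of the group with GSK205. Loading had lowered IHH by 0.57 ± 0.13 on its own, so its level was lowest with both (6.34 CPM, beside 14.3 CPM in DMSO).

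Of 28 sterol and fatty acid synthesis genes tested, loading raised 17 over DMSO, where it raised 7.86% of all genes. Adding the drug to loading lowered 11 and raised 0 (median -0.17), and without load it lowered 11 and raised 3. HMGCS1, an early enzyme of cholesterol synthesis, stood at 443, 428, 412 and 450.1 CPM with loading and at 319, 326, 373 and 378 CPM with GSK205 added. The groups did not overlap, but loading raised HMGCS1 by 0.71 ± 0.07 with GSK205 and by 0.58 ± 0.07 without, and the interaction of 0.13 ± 0.10 did not pass. Of 17 heat shock genes, loading raised 10 over DMSO, and adding the drug lowered 7 and raised 1, among them HSPA8 (-0.29 ± 0.06), which loading raised by 0.55 ± 0.06 with and by 0.52 ± 0.06 without the drug. The sterol genes gave 6 falls without replicate 1 of the loading group and 7 without replicate 1 of the group with GSK205.

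**Figure D4:**
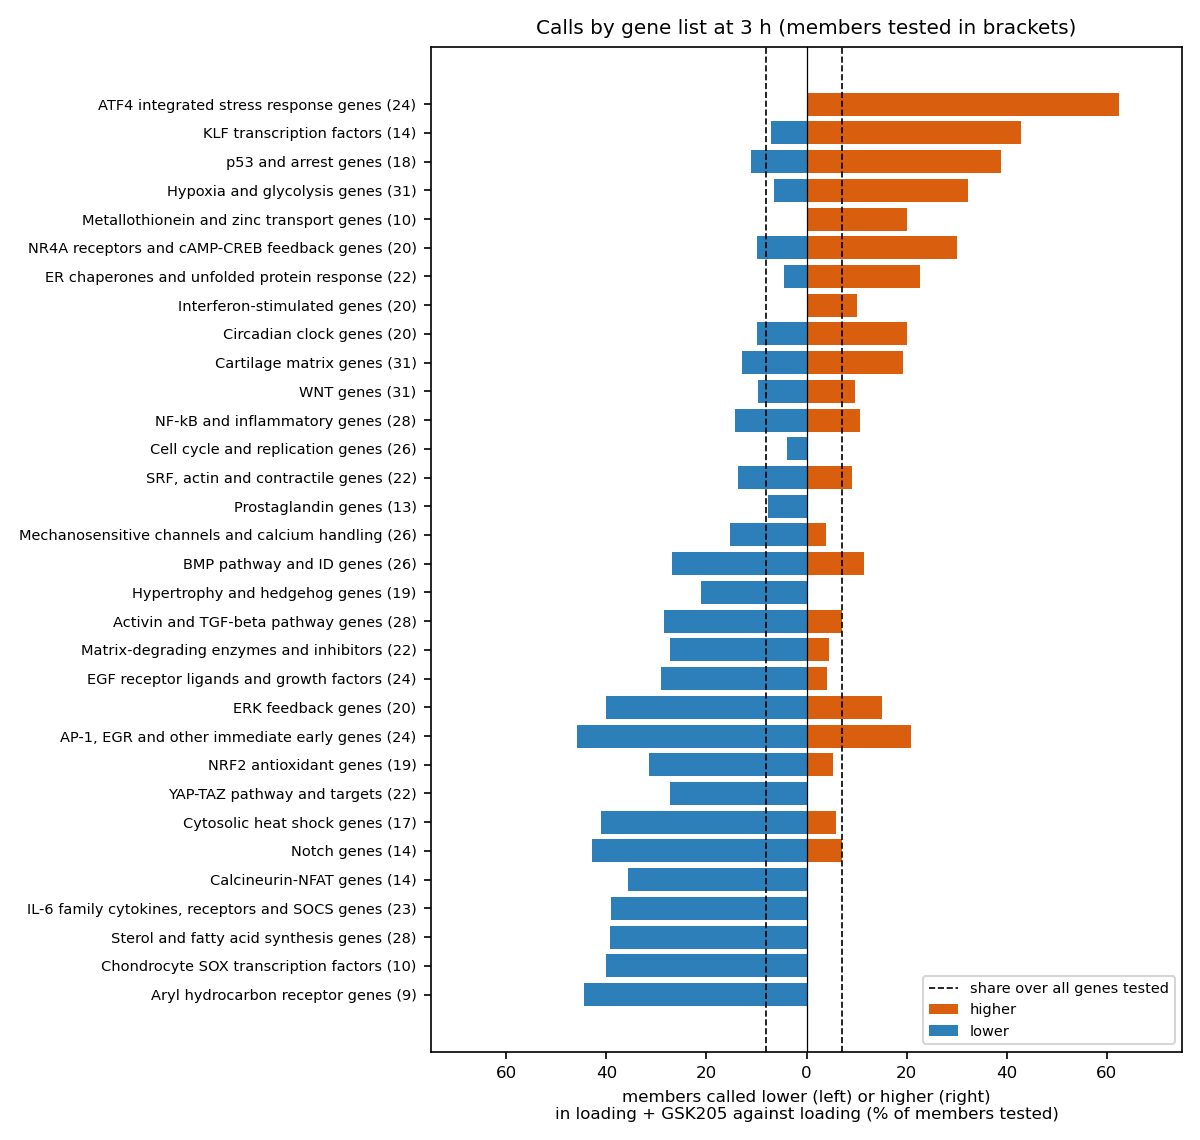
Share of the tested members of each gene list called lower (left) or higher (right) with GSK205 added to loading, in percent, with dashed lines at the shares over all genes, 8.16% and 7.11%. ATF4 integrated stress response genes gave 15 rises of 24 and no fall, and IL-6 family genes gave 9 falls of 23 and no rise.

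Some other genes raised by loading had a positive interaction or no call. Immediate early genes were divided, with 5 of 24 tested higher and 11 lower (median -0.17). Loading raised 17 of the 24 over DMSO and 19 over GSK205. The interaction was called positive for 4 of the 24 and negative for 2, ATF3 among the latter. The 11 falls became 7 without replicate 3 of the group with GSK205. JUNB, an AP-1 subunit, stood at 162, 224, 268 and 178 CPM with loading and at 197, 280, 272 and 210 CPM with loading and GSK205. The groups overlapped and did not differ by the test (0.21 ± 0.11, adjusted p = 0.213). GSK205 lowered JUNB by 0.61 ± 0.12 without load, loading raised it by 2.05 ± 0.11 without and 2.87 ± 0.12 with the drug, and the interaction was 0.82 ± 0.16 (adjusted p = 0.00452). FOS, its partner, stood at 116, 110, 134 and 111 CPM and at 116, 114, 129 and 125 CPM, with an interaction of 0.61 ± 0.09 (adjusted p = 0.000372). IER2 rose by 0.49 ± 0.08 with an interaction of 0.72 ± 0.11, FOSB fell by 1.05 ± 0.14, and JUN rose by 0.60 ± 0.12.

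SMAD7, the feedback inhibitor of TGF-beta receptors, stood at 15.7, 20.7, 24.8 and 16.7 CPM with loading and at 12.8, 15.3, 14.2 and 13.6 CPM with loading and GSK205. The groups were close without overlapping, and it fell by 0.48 ± 0.10. GSK205 without load lowered it by 1.69 ± 0.13, to a mean of 2.60 CPM from 8.38 CPM in DMSO, and the interaction was 1.21 ± 0.16 (adjusted p = 6.66e-05). The BMP-induced inhibitors ID1 and ID3 showed this too. ID1 stood at 189, 221, 233 and 216 CPM with loading and at 171, 164, 145 and 142 CPM with GSK205 added. It fell by 0.46 ± 0.07 under load and by 1.40 ± 0.07 without, with an interaction of 0.94 ± 0.10 (adjusted p = 2e-06). That of ID3 was 0.75 ± 0.12 (adjusted p = 0.000372). Of 26 BMP and ID genes tested, 7 fell and 3 rose, while 4 fell without replicate 2 of the loading group and 1 rose without replicate 1 of the group with GSK205.

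HES1, a transcriptional repressor of the Notch pathway, was the 1 gene of the 12 largest rises with a positive interaction. It stood at 3.87, 6.85, 5.11 and 4.24 CPM with loading and at 8.91, 11.6, 9.93 and 9.08 CPM with loading and GSK205. The free-swelling groups averaged 2.19 CPM in DMSO and 1.88 CPM in GSK205. The interaction was 1.17 ± 0.28 (adjusted p = 0.0229), called in 20 of 21 settings. Other Notch genes moved the other way, with 6 of 14 tested lower, the ligand DLL1 by 0.82 ± 0.13 and the receptor NOTCH1 by 0.76 ± 0.20. The phosphatase DUSP2, at 3.53 to 5.73 CPM with loading and 2.66 to 5.51 CPM with loading and GSK205, did not differ by the test (-0.03 ± 0.17). Its mean was 4.40 CPM in DMSO and 1.30 CPM in GSK205, and its interaction was 1.72 ± 0.27 (adjusted p = 0.000372). Heme oxygenase HMOX1, which GSK205 lowered by 0.84 ± 0.11 without load, gave an interaction of 1.02 ± 0.15 (adjusted p = 0.000225).

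Genes of the cartilage matrix differed by small amounts. COL2A1, the chief collagen of cartilage, differed by 0.03 ± 0.07 and the proteoglycan ACAN by 0.01 ± 0.06, and neither passed. Of 31 matrix genes tested, 6 rose and 4 fell, with called values from -0.67 to 0.36. Leaving out replicate 1 or 2 of the loading group, or replicate 1 of the group with GSK205, left 2 rises. Without load GSK205 raised 12 of the 31 and lowered 1, beside 14.6% and 12.5% of all genes. The interaction was called negative for 3 of the 31 and positive for 0. Among the 31 under load, the cytokine-like protein CYTL1, at 23.0, 26.0, 30.0 and 27.7 CPM with loading and 17.7, 17.1, 16.5 and 15.6 CPM with GSK205 added, fell most. CNMD (chondromodulin) rose most, by 0.36 ± 0.12, and was called in 7 of 14 settings. Its call was lost with DESeq2, with the replicate block, and without replicate 1, 2 or 4 of the loading group or replicate 1 or 2 of the group with GSK205. SOX9, the master regulator of chondrocytes, fell by 0.24 ± 0.07, with overlapping groups and a call in 9 of 14 settings, lost without replicate 1 or 2 of the loading group or replicate 1, 3 or 4 of the group with GSK205. Of 22 matrix-degrading enzymes and inhibitors 6 fell and 1 rose, with the aggrecanase ADAMTS1 lower by 0.78 ± 0.10 and the inhibitor TIMP1 by 0.32 ± 0.06. Of 31 hypoxia and glycolysis genes tested, 10 rose and 2 fell (median 0.15), led by the mitophagy receptor BNIP3 (0.36 ± 0.06). Without replicate 1 of the loading group 3 rose and 0 fell, and leaving out replicate 2 of that group, or replicate 1 or 2 with GSK205, gave 5 rises.

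YAP-TAZ genes gave 6 falls of 22 and 0 rises, among them the coagulation initiator F3 (-0.95 ± 0.14) and the transcription factors TEAD3 (-0.81 ± 0.11) and TEAD4 (-0.76 ± 0.15). Calcineurin-NFAT genes gave 5 falls of 14 and 0 rises, with the synaptic scaffold gene HOMER1 lowest (-0.88 ± 0.14) and the feedback inhibitor RCAN1 lower by 0.22 ± 0.07, the latter called in 6 of 14 settings and lost without any library of the loading group or replicate 1, 2 or 3 of the group with GSK205. Of 26 channel and calcium handling genes tested 4 fell and 1 rose, and the calcium-activated potassium channel KCNN4, at 0.992 CPM on average with loading and GSK205, fell by 1.28 ± 0.27. SRF and actin genes gave 3 falls and 2 rises of 22, including the focal adhesion proteins zyxin (ZYX, -0.77 ± 0.11) and vinculin (VCL, -0.47 ± 0.07). SOX-list genes gave 4 falls of 10 but as few as 1 with a library left out, WNT genes 3 rises and 3 falls of 31, clock genes 4 rises and 2 falls of 20, interferon-stimulated genes 2 rises of 20, and cell cycle genes 1 fall of 26. Over all genes 7.11% rose and 8.16% fell. Counts of WNT genes, of clock falls, and of SRF and interferon rises lay near these shares. The 3 WNT falls became 0 without replicate 2 of the loading group and 1 without replicate 3 or 4 of the group with GSK205. A count of 1 rise of SRF and actin genes was left without replicate 1 or 4 of the loading group or 1, 3 or 4 of the group with GSK205, 1 of interferon genes without replicate 1 or 2 of the former or 3 of the latter, and 1 fall of clock genes without replicate 3 of the loading group.

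At 9 h, after loading had ended, adding GSK205 to loading gave fewer calls, 678 of 16540 genes (4.1%), 349 (2.11%) higher and 329 (1.99%) lower. Leaving out replicate 1 of loading at 9 h gave 320 calls, and leaving out replicate 1 or 3 of the 9 h group with GSK205 gave 295 or 347. No library is shared between the times. Of 1176 genes called higher at 3 h and tested at both times, 36 (3.06%, and 10.3% of those called higher at 9 h) were called higher again and 64 were called lower. Of 1348 called lower at 3 h, 46 (3.41%, and 14.1% of those at 9 h) were called lower again and 70 higher. The test of the difference between the times called 2202 of 17447 genes (12.6%), 6.99% with a positive and 5.63% with a negative value, among them 10 of the 12 largest rises and 10 of the 12 largest falls at 3 h, each with a sign opposite to its change at 3 h.

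IL11, at 3.69 to 5.08 CPM and 3.50 to 4.77 CPM, did not pass the test at 9 h (-0.04 ± 0.12). TGFB1 stayed lower by 0.59 ± 0.07 and CYTL1 by 0.71 ± 0.08. NR4A1, at 2.84 to 5.30 CPM with loading and 4.75 to 6.48 CPM with GSK205 added, differed by 0.50 ± 0.15 and did not pass (adjusted p = 0.0506). MT1A stood at 8.67, 5.68, 6.56 and 7.49 CPM and at 14.5, 16.4, 20.0 and 10.7 CPM, still higher by 1.11 ± 0.13 and without overlap. FOS, which did not pass at 3 h, fell by 0.64 ± 0.07 at 9 h, from 72.2 to 91.2 CPM to 48.8 to 52.5 CPM. HMGA1, lower by 0.48 ± 0.12 at 9 h, lost its call without replicate 3 of loading or replicate 1, 2 or 3 of loading with GSK205. ATF4 integrated stress response genes gave 0 rises and 2 falls at 9 h, and sterol genes 6 rises and 0 falls.

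**Figure D5:**
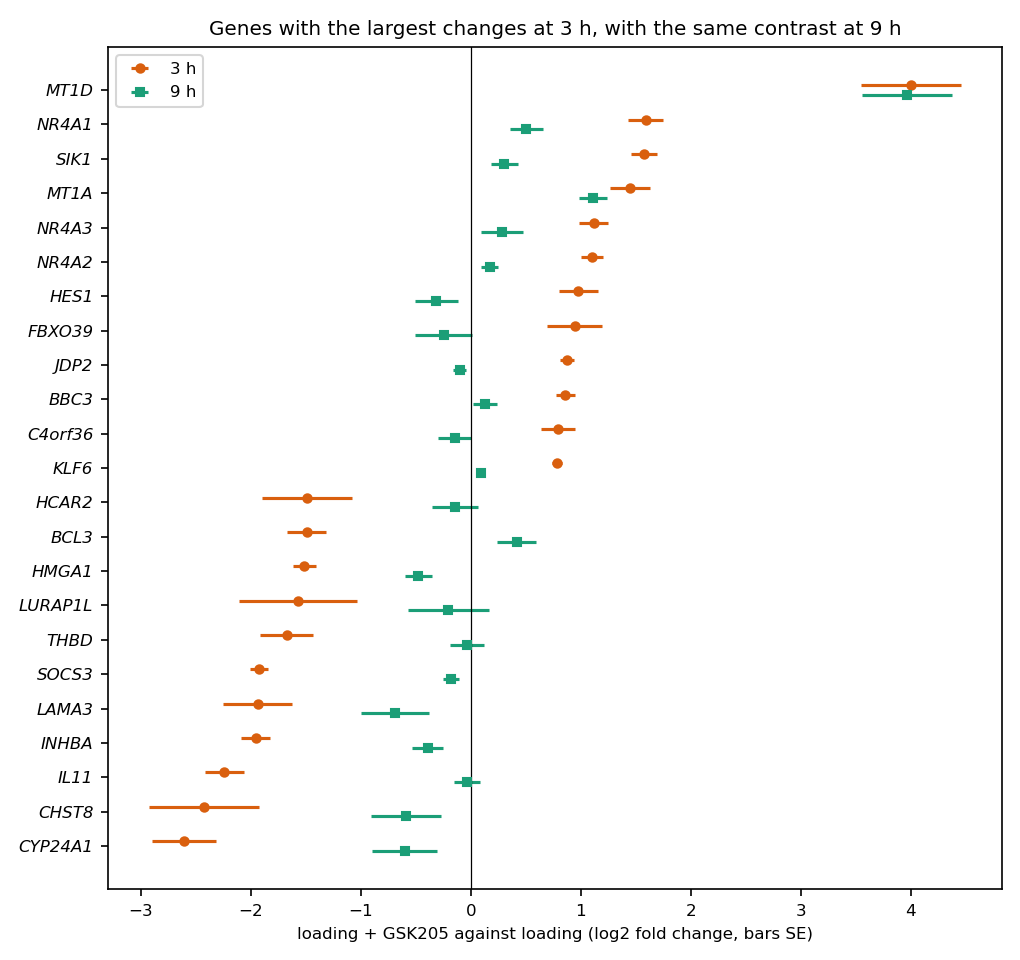
Log2 fold change with standard error of loading with GSK205 against loading at 3 h and 9 h for the named genes with the largest rises and falls at 3 h. For most of these genes the 9 h values lie nearer to 0 than the 3 h values. MT1A (1.11), MT1D (3.96) and HMGA1 (-0.48) were called at both times, HMGA1 in 10 of 14 settings at 9 h. The difference between the times was not called for MT1A or MT1D.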

How the data were processed

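The authors deposited gene counts as whole numbers, without normalisation. Trim Galore, STAR, HTSeq and the build Sscrofa11.1 are named in the submitters' processing notes; for versions and strand, nothing is given in the sources used here, and genes that overlap on opposite strands are uncertain. Per the labels' protocols, ribosomal RNA was depleted and random hexamers were used, although the labels name polyA RNA. Of 32388 lines, 481 were repeats and were removed. Low counts were mostly even (67.8 to 74.77% of counts from 1 to 20), so errors rest on the spread between libraries, which exceeded sampling noise (chi-square per degree of freedom at least 9.13).

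With edgeR 4.0.16 (R 4.3.3), libraries were TMM-scaled, low genes removed (filterByExpr, minimum count 10) and quasi-likelihood models with 1 term for each group fitted over the 24 libraries of the TRPV4 experiment at 3 h, again at 9 h, and over all 48 for the difference between times. The common biological coefficient of variation was 0.107 at 3 h. A standard error is the log2 fold change divided by the square root of F, without sign. The model was also run on counts simulated from its own fitted dispersions. Such counts lack the excess of even values, so the run cannot show how the model handles it. Alternatives were DESeq2 1.42.0, RLE scaling, no filter, protein-coding genes only, only the groups compared, a replicate block, and each library left out.

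The comparison, lists and tests were chosen with earlier results of these data known. Genes named by rule were the 12 largest rises, the 12 largest falls, the most changed called gene in each direction in each list, and TRPV4 and PIEZO1. The 12 rises and 12 falls had to be protein-coding, called, at 1 CPM or more in a group and without overlap between groups. List genes had only to be called, and TRPV4 and PIEZO1 were named without any condition. Others named are list members that fill out an account, some chosen after their values were seen. A few results are not reported here. Positions are RefSeq's on Sscrofa11.1.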

Additional observations from a re-analysis of the deposited data

Results flagged for a closer look

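Of 150 groups of 4 libraries checked for 1 library far from its others, 5 stood out, and chance alone marks about 1 group in 20. They were FBXO39 in replicate 3 of the loading group at 3 h (0.872 CPM), HOMER1 in replicate 1 (7.40 CPM), FOXA2 in replicate 2 (2.67 CPM) and PTHLH in replicate 2 (3.43 CPM) of the same group, and F3 in replicate 4 of loading with GSK205 (1.47 CPM).

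The effect of GSK205 differed between loaded and free-swelling constructs for 372 genes by the interaction test. Among the genes named by rule, the log2 interaction was negative for CYP24A1 (-2.06), LAMA3 (-1.70), INHBA (-1.66), IL11 (-1.34), PTGS2 (-1.16), HMGA1 (-0.98), the clock repressor NFIL3 (-0.83), NR4A3 (-0.81), TNFRSF11B (-0.62), SOCS3 (-0.50) and PDE4B (-0.36). It was positive for HES1 (1.17).

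The effect of GSK205 under load differed between 9 h and 3 h for 2202 genes. The log2 difference, 9 h minus 3 h, was negative for HES1 (-1.29), SIK1 (-1.27), FBXO39 (-1.19), NR4A1 (-1.10), JDP2 (-0.97), C4orf36 (-0.94), NR4A2 (-0.93), NR4A3 (-0.83), BBC3 (-0.73) and KLF6 (-0.69). It was positive for IL11 (2.20), CYP24A1 (1.98), BCL3 (1.91), CHST8 (1.83), SOCS3 (1.75), THBD (1.64), INHBA (1.56), HCAR2 (1.33) and HMGA1 (1.04).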

How the results depend on the processing

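For loading with GSK205 against loading at 3 h, no called gene named by rule changed direction under any alternative run. Of 992 values of the 71 genes named by rule, 946 stayed as they were, called or not called. The other 46 lost their call, those of BMP6, CNMD, CNN2, CREB3L2, EGR3, FASN, FOXA2, LURAP1L, PFKFB4 and TCF7. Genes named outside the rule are not among the 992, and some of them, such as SOX9, RCAN1 and GLI1, lost their call in settings given above. Called genes numbered 1596 to 2524 with 1 library left out, the lowest without replicate 1 of the loading group. They numbered 3011 with DESeq2, 2995 with only the groups compared, and 2391 with the replicate block. That block did not mark a pairing: same-numbered libraries of both groups deviated with correlations from -0.148 to 0.032, and 0 libraries correlated best with their own number. Loading against DMSO called 1021 genes (63.8% higher) when only the groups compared were fitted, and 1057 to 1759 with 1 library left out (lowest without replicate 3 of loading). The interaction, the least stable count, called 230 genes with the replicate block, 666 with DESeq2 and 135 (without replicate 1 of loading with GSK205) to 671 (without replicate 1 of DMSO) with 1 library left out. Its split moved to 157 positive and 131 negative with RLE scaling, 177 and 131 with protein-coding genes only and 146 and 121 with only the groups compared. At 9 h, DESeq2 called 1173 genes, and leaving out 1 library gave 295 (without replicate 1 of loading with GSK205) to 746. The cause of these shifts was not tested. Fold changes of genes near 1 CPM are limited by depth.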
